A study of Mus musculus with 3 samples.

Results

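Homeobox genes encode transcription factors that share a DNA-binding homeodomain and that give cells their place along the axes of the embryo. Hox genes lie in clusters named Hoxa, Hoxb, Hoxc and Hoxd, and low-numbered genes are used towards the head while high-numbered genes are used towards the tail and in the distal limb. Connective tissue cells of the adult keep much of the Hox pattern of their site, so a tumor of soft tissue can carry such a record. PBX and MEIS proteins bind DNA beside HOX proteins, and the families of Dlx, Msx, Prrx, Six2, Lhx, Irx, Emx and Otx genes pattern the face, limbs, forebrain and organs.

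The members were all probe sets with a single gene symbol that begins with 1 of these family names followed by a digit. There were 82 such probe sets for 81 genes, of 21789 probe sets for 19938 genes in all. They comprised 37 Hox genes (10 Hoxa, 9 Hoxb, 9 Hoxc and 9 Hoxd), 40 genes of the other families and 4 transcripts named for the opposite strand of a homeobox gene (Dlx1as, Hoxd3os1, Irx3os and Six3os1).

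Expression was measured on Affymetrix MoGene-1_0-st-v1 arrays, 1 array for each of 3 groups, in material from EWS/ATF1-inducible mice. The transgene joins part of EWSR1 to the CREB-family factor ATF1, a fusion known from clear cell sarcoma of humans. By the labels, the tumor array holds RNA of a tumor resected from a mouse after 3 months of doxycycline, the high doxycycline array holds RNA of tumor cells in culture 24 hours after exposure to 0.2 microg/ml doxycycline, and the control array holds RNA of tumor cells in culture with 0 microg/ml at the same time. All are labelled as tumor cells of soft tissue sarcoma origin on a mixed C57/BL6, 129 and ICR background. Both culture arrays carry the number 1297 in their descriptions and the tumor array 1281, with no word on what the number stands for. The sources used here do not say which promoter or cell type drives the transgene.

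The labels of the control and tumor arrays go against the cell type markers on them, so each array is called below by its label only. Of 12 macrophage genes, 1 lay above the array median on tumor, 1 on high doxycycline and 12 on control, and their summed intensity was 1334 on tumor, 1663 on high doxycycline and 26760 on control. Endothelial genes (1, 1 and 9 of 10 above the median, in the same order), skeletal muscle genes (3, 4 and 10 of 12) and fibroblast and matrix genes (10, 8 and 13 of 13) summed to at most 1520, 2367 and 4610 on the tumor and high doxycycline arrays, against 9914, 34636 and 60395 on control. Neural crest and Schwann cell genes summed to 12542 on tumor, 9195 on high doxycycline and 7357 on control. Of the 10 measured genes of this list of 12, 6, 5 and 6 lay above the median in that order, so these counts hardly differed. The part of these cells in any homeobox value below was not tested, and in bulk RNA fewer cells of a type and less RNA per cell cannot be told apart.

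With 1 array a group there was no replicate and no test, and precision is limited by how few arrays there are. Differences are between log2(intensity + 1) values, which understates those of dim genes, and a gene was compared only where the brighter of both arrays exceeded its own median over all probe sets (219.8 on tumor, 226.7 on high doxycycline and 250.02 on control). A difference of at least 2-fold is the size used for counts. The measure of error within the arrays was how far probe sets of 1 gene disagreed, with a median of 0.38 (log2) for tumor minus control, 0.37 for high doxycycline minus control and 0.055 for tumor minus high doxycycline. That disagreement reached 1 or more for 21.0%, 19.9% and 0.770% of genes, in that order. Between tumor and high doxycycline 34.6% of all probe sets had exactly equal values, and their part in the 0.055 was not tested. Every member except Hoxd3os1 had 1 probe set, so no member difference has a second probe set behind it.

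Promoter sequences are shown for the neighbours Hoxa5 and Hoxa6, for the neighbours Hoxa9 and Hoxa10, and for Six2. These Hoxa genes were at least 2-fold brighter on tumor than on control. Six2 was the 1 member that differed by 2-fold between the tumor and high doxycycline arrays. Each sequence is the 250 bases before a RefSeq start site (GRCm38.p6), read along the gene. The windows are chr6:52204588-52204837 for Hoxa5, chr6:52208673-52208922 for Hoxa6, chr6:52227371-52227620 for Hoxa9, chr6:52234940-52235189 for the downstream start of Hoxa10, chr6:52240855-52241104 for its upstream start and chr17:85688255-85688504 for Six2, all on the minus strand. Capitals mark TGACG or its reverse complement CGTCA, the half-site of the cAMP response element that ATF1 binds, and TGACAG or its reverse complement CTGTCA, the site bound by MEIS and TGIF proteins. The letters of these motifs do not contain each other.
Hoxa5: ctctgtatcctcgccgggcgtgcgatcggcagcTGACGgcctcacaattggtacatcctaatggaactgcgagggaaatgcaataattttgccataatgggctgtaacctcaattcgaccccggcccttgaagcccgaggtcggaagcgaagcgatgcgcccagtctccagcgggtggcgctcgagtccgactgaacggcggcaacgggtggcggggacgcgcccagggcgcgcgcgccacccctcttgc
Hoxa6: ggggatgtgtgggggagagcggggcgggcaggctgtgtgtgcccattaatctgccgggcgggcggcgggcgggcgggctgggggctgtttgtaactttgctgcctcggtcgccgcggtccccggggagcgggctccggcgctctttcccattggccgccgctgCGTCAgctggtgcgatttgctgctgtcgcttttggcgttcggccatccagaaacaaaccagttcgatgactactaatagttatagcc
Hoxa9: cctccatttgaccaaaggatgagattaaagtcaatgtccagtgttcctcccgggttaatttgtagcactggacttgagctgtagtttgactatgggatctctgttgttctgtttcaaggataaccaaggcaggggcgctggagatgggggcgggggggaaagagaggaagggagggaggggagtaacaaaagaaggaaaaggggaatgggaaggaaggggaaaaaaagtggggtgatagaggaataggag
Hoxa10, downstream start: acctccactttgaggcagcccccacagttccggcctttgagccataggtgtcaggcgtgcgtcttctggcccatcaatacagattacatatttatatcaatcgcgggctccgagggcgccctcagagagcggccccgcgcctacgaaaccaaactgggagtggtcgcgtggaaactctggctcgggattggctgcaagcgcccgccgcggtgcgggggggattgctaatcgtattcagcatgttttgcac
Hoxa10, upstream start: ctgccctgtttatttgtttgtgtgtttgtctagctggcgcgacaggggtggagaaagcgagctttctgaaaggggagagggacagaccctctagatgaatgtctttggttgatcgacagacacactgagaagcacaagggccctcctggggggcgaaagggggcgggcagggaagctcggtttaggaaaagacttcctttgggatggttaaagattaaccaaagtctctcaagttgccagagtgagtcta
Six2: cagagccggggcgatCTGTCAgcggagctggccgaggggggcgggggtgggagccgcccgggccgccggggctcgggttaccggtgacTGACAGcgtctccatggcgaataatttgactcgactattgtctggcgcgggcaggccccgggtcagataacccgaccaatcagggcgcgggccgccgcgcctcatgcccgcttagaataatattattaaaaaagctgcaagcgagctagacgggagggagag

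The half-site occurred once before Hoxa5 and once before Hoxa6, and neither motif occurred in the windows of Hoxa9 and Hoxa10. The window of Hoxa13, which was also at least 2-fold brighter than on control, is not shown and held neither motif. Six2 held the MEIS and TGIF site 2 times. RefSeq windows were matched by symbol for 54 of the 81 members, 64 windows in all. The half-site stood in 29.7% of these windows and in 17.8% of 32851 windows of all genes, the MEIS and TGIF site in 12.5% and 15.9%, and the whole element TGACGTCA, its own reverse complement and made of 2 overlapping half-sites, in 0 member windows and 1.55% of all. The half-site holds a CpG, and member windows were richer in CpG, with a median of 14 CpG and 61% G and C against 6 and 52.4% over all windows; the part of composition in the count of half-sites was not tested. A match is a run of letters only and no measured binding.

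Of the homeobox genes that were at least 2-fold brighter than on control, 5 of 8 on tumor and 4 of 7 on high doxycycline were Hoxa genes. On the tumor and high doxycycline arrays 8 of 10 Hoxa genes lay above the array median (all but Hoxa2 and Hoxa11), against 4 on control (Hoxa4, Hoxa5, Hoxa6 and Hoxa7). Hoxa10, a gene of the lumbar trunk, proximal limb and uterus, had an intensity of 1881 on tumor, 1107 on high doxycycline and 184 on control. It was 10.2-fold brighter on tumor than on control, and its log2 difference was 3.35 for tumor minus control and 2.58 for high doxycycline minus control; 0.416% and 0.955% of all compared genes had a higher one. Its neighbour Hoxa9, which acts in the lower trunk and in blood stem cells, had 1822 on tumor, 961 on high doxycycline and 227 on control, or 7.99-fold and 4.22-fold over control. Both genes lay below the median on control, with tumor above high doxycycline above control.

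Hoxa6, a gene of the thoracic region, had 1270 on tumor, 1248 on high doxycycline and 453 on control (2.80-fold and 2.75-fold brighter than control). Hoxa13, which patterns the digits and the genital tract, had exactly 492.6 on both tumor and high doxycycline and 200.5 on control (2.45-fold). Hoxa5, which acts in the neck, lung and upper trunk, had 509 on tumor, 448 on high doxycycline and 253 on control; its 2.01-fold difference between tumor and control lay just past the 2-fold mark, while the 1.77-fold difference between high doxycycline and control lay inside it. On control it was barely above the array median.

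The other Hoxa genes lay within 2-fold in the values as deposited. Hoxa3, a gene of the pharyngeal arches, had 365 on tumor, 252 on high doxycycline and 205.5 on control (0.83 on the log2 scale for tumor minus control, and 1.01 with the arrays at a common median), and Hoxa7, of the thoracic vertebrae, had 1264 on tumor, 1050.3 on high doxycycline and 774 on control. Hoxa4, which acts in the neck, was the only compared Hoxa gene that was dimmer than on control, with exactly 514.9 on tumor and high doxycycline and 620 on control. Hoxa11, which lies between Hoxa10 and Hoxa13 and patterns the forearm and lower leg, was at 137.9 on tumor, 137.9 on high doxycycline and 138.2 on control, below every array median. The run of genes that differed by 2-fold or more was thus broken at Hoxa7 and at Hoxa11 in both comparisons with control. At least 2-fold brighter were 5 of the 8 compared Hoxa genes on tumor and 4 on high doxycycline, beside 18.5% and 17.4% of all compared genes. Of these 8, Hoxa3, Hoxa9, Hoxa10 and Hoxa13 entered the comparisons through the tumor and high doxycycline arrays alone, since they lay below the median on control, so the filter favoured the direction they show.

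**Figure D1:**
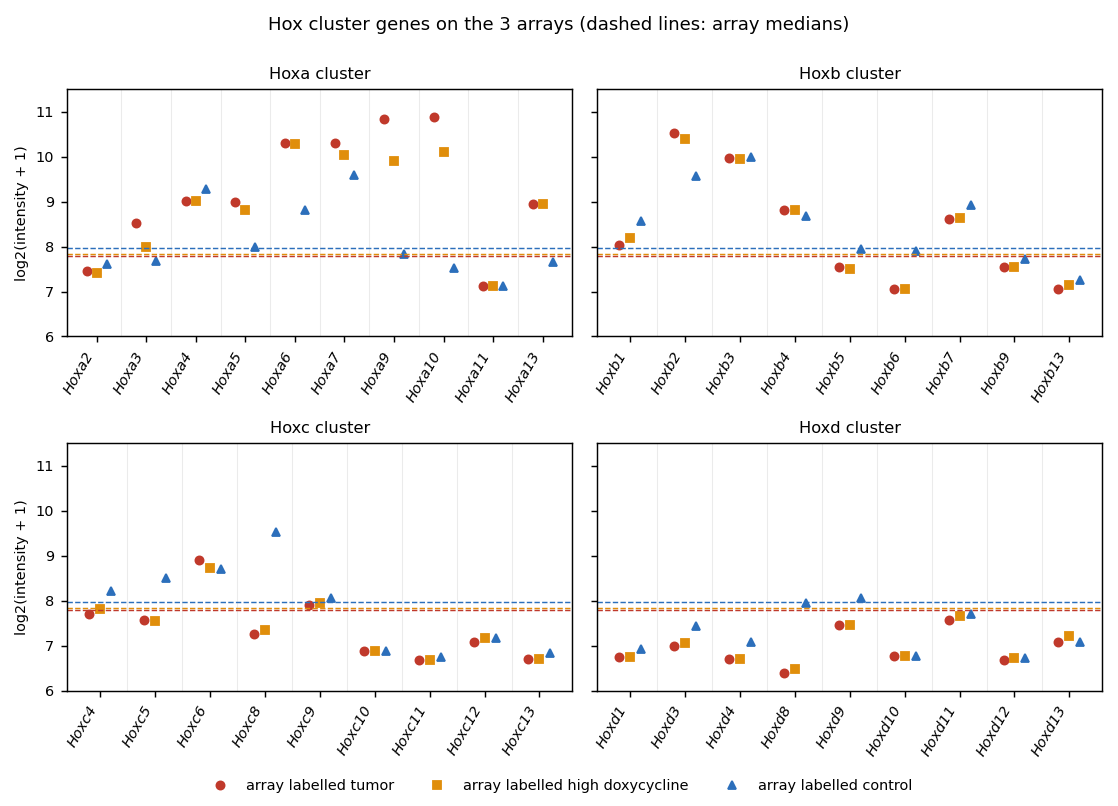
The y axis gives log2(intensity + 1) of each Hox gene on the arrays labelled tumor (circles), high doxycycline (squares) and control (triangles), in panels by cluster and from low to high gene number along the x axis, with dashed lines at the array medians. Hoxa9 and Hoxa10 stand far above the control array on both other arrays, Hoxc8 stands alone on control (735), and the Hoxd genes lie at or below the medians, with Hoxd9 on control (266) slightly above.

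Most low-numbered Hoxb genes lay above the median on every array, and none differed by 2-fold in the values as deposited. Above it were Hoxb1, Hoxb2, Hoxb3, Hoxb4 and Hoxb7, while Hoxb5, Hoxb6, Hoxb9 and Hoxb13 lay below every array median. Hoxb2, a gene of the hindbrain and of facial nerve cells, had 1472 on tumor, 1345 on high doxycycline and 758 on control, and its 1.94-fold difference between tumor and control lay just inside the 2-fold mark and just outside it with the arrays at a common median (1.14 on the log2 scale). Hoxb3, also of the hindbrain, had 1004 on tumor, 991 on high doxycycline and 1013 on control, and Hoxb4, which acts in the neck and in blood stem cells, had 451 on tumor, exactly the same on high doxycycline and 411 on control. These were close together on all arrays.

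Hoxb1, which marks a single segment of the hindbrain, was dimmer on the other arrays than on control, with 263 on tumor, 289 on high doxycycline and 379.9 on control. Hoxb7, of the thoracic region, had 389 on tumor, 399 on high doxycycline and 483 on control. Neither reached 2-fold. Over the 5 compared Hoxb genes the median log2 difference was -0.013 for tumor minus control and -0.032 for high doxycycline minus control; both medians and the Hoxb3 differences turned positive with the arrays at a common median.

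Of the compared Hoxc and Hoxd genes only Hoxc8 differed by 2-fold, in both comparisons with control. Hoxc4, Hoxc5, Hoxc8 and Hoxd9 lay above the median on control alone and entered the comparisons through it, so the filter favoured the direction they show. Hoxc8, which patterns the lower thorax and the motor neurons of the forelimb, had 152 on tumor, 162 on high doxycycline and 735 on control. It was 4.80-fold dimmer on tumor and 4.53-fold dimmer on high doxycycline than on control, beside 10.2% and 8.45% of compared genes that were at least 2-fold dimmer. Hoxc5, of the neck and upper thorax, had 188 on tumor, 187 on high doxycycline and 365 on control, log2 differences of -0.95 and -0.96 from control that stay just inside 2-fold.

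Hoxc4, of the neck, had 207 on tumor, 225 on high doxycycline and 298 on control. Hoxc6, of the upper thorax, had 480 on tumor, 421 on high doxycycline and 416 on control, and Hoxc9, of the lower thorax, had 240 on tumor, 248 on high doxycycline and 267 on control. The last 2 lay above the median on every array, and the sign of the Hoxc9 difference from control turned under both other scalings tried. For Hoxc6 the log2 difference of 0.018 between high doxycycline and control became -0.029 under quantile normalization. Hoxc10, Hoxc11, Hoxc12 and Hoxc13 lay between 101.8 and 143.6 on all arrays, below every median.

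In the Hoxd cluster only Hoxd9, which acts in the forelimb and lower trunk, lay above a median, with 176 on tumor, 176 on high doxycycline and 266 on control. Hoxd8, a trunk gene, fell short of the median on every array and entered no comparison; it had 82.8 on tumor, 88.2 on high doxycycline and 247 on control, the last just under the control median. The remaining Hoxd genes, the distal limb genes Hoxd11, Hoxd12 and Hoxd13 among them, had no array above 207.6.

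By position, the arrays held different sets of Hox genes above their medians although the count was 15 of 37 on each, or 40.5%, beside 55.1% of all genes on tumor, 55.1% on high doxycycline and 55.2% on control. The 15 genes were the same ones on tumor and high doxycycline. Of these, 11 also lay above the median on control. The other 4 were Hoxa3, Hoxa9, Hoxa10 and Hoxa13, and in their place control had Hoxc4, Hoxc5, Hoxc8 and Hoxd9. Some of these lay close to a median. Hoxc4 on high doxycycline had 225.2 against a median of 226.7, and Hoxd9 on control had 266 against 250.02. Hoxa9 on control (227.2) lay above the medians of tumor (219.8) and high doxycycline. The share of all genes that changed sides of the median between arrays was not computed, so this exchange has no background beside it. Of the 16 genes numbered 9 to 13, 4 lay above the median on tumor, 4 on high doxycycline and 2 on control; of the 10 numbered 5 to 8, 5, 5 and 7 did so in that order, and of the 11 numbered 1 to 4, 6 did so on each array. Across the 37 Hox genes the log2 levels correlated at 0.99 between tumor and high doxycycline, 0.63 between tumor and control and 0.70 between high doxycycline and control (Pearson). The same figures over all 19938 genes were 0.99, 0.90 and 0.91. The median size of the log2 difference was close for both sets. It was 0.31 for Hox genes and 0.30 for all genes between tumor and control, and 0.28 and 0.25 between high doxycycline and control. A Pearson correlation also depends on the spread of levels among the genes, and the part of that spread was not tested. These correlations are descriptions across genes, which share the arrays and are no replicates. Of the 37 Hox genes 11 (29.7%) had exactly equal values on tumor and high doxycycline, beside 34.6% of all probe sets. The part of equal values in the 0.99 was not tested.

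Counted over all members, 2-fold differences were about as frequent as among other genes in the brighter direction. Of 81 members, 46 passed the brightness filter against control. Between tumor and control 8 of the 46 (17.4%) were at least 2-fold brighter, beside 18.5% of 12010 genes, namely Hoxa5, Hoxa6, Hoxa9, Hoxa10, Hoxa13, Dlx1, Dlx2 and Pbx3. At least 2-fold dimmer were 2 members (4.35%), Hoxc8 and Six2, beside 10.2% of genes. Between high doxycycline and control the same genes without Hoxa5 made 7 of 46 brighter (15.2%), beside 17.4% of 11933 genes, and Hoxc8 alone was dimmer (2.17%), beside 8.45%. Both comparisons share the control array. The median difference of the members was -0.0065 for tumor minus control and 0 for high doxycycline minus control, beside 0.075 and 0.083 over all genes.

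**Figure D2:**
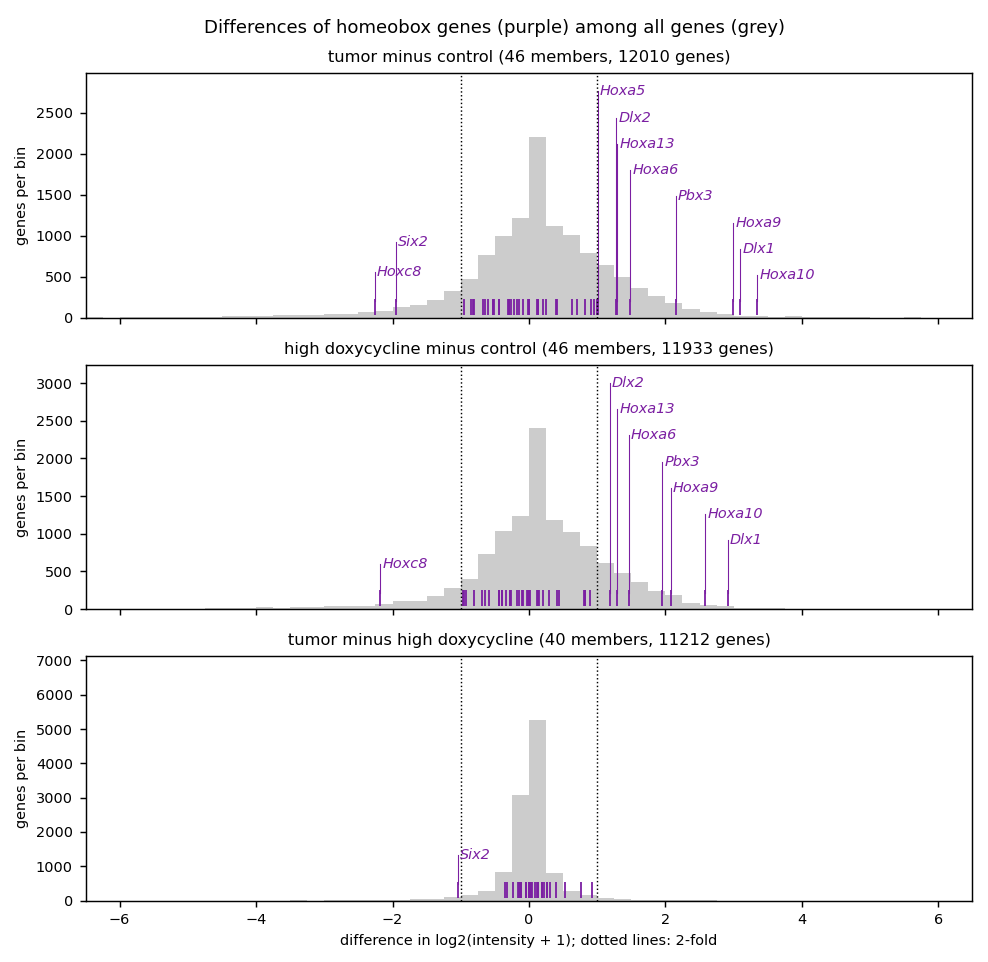
Grey bars count all compared genes by their difference in log2(intensity + 1), in bins of 0.25, for tumor minus control, high doxycycline minus control and tumor minus high doxycycline; purple ticks are the compared homeobox genes, named where they reach 2-fold (dotted lines). Hoxa10 (3.35), Dlx1 (3.10) and Hoxa9 (3.00) lie in the far right tail of the first panel, and Six2 (-1.04) is the single named gene of the last.

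Between the tumor and high doxycycline arrays homeobox genes differed little. Of 40 compared members 0 were at least 2-fold brighter on tumor, beside 1.58% of 11212 genes, and 1 was dimmer (2.50%), beside 1.94%. That gene was Six2, which keeps kidney progenitors undifferentiated and acts in the skull base. It had 937 on tumor, 1926 on high doxycycline and 3640 on control, so that it was 2.05-fold dimmer on tumor than on high doxycycline and 3.88-fold dimmer than on control. The first of these was under 2-fold when the arrays were brought to a common median (-0.99 on the log2 scale).

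Hoxa9 and Hoxa10 were the members with the highest differences between tumor and high doxycycline, at 1.89-fold and 1.70-fold, and 1.94% and 2.78% of compared genes had a higher one. Of 8 Hoxa genes 6 were brighter on tumor than on high doxycycline, 0 were dimmer, and Hoxa4 and Hoxa13 had exactly equal values. Of all compared genes 33.1% were brighter on tumor than on high doxycycline and 40.6% dimmer. Equal values were frequent in the deposited table: 23 of 81 member genes had the same value on tumor and high doxycycline (28.4%, beside 34.6% of all probe sets), and Hoxd10, Lhx2, Otx1 and Prrx1 had 1 value on all 3 arrays. The sources used here do not explain these equal values, so an exact match between arrays need not stand for 2 independent measurements.

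Among the cofactors of HOX proteins, Pbx3, a TALE homeodomain protein that binds DNA together with HOX and MEIS proteins, had 6774 on tumor, 5925 on high doxycycline and 1527 on control. It was 4.43-fold brighter on tumor and 3.88-fold brighter on high doxycycline than on control, where 2.98% and 3.51% of compared genes had a higher difference. Pbx2, Pbx4, Meis1, Meis2 and Meis3 lay above the median on every array and within 2-fold. Of these, Meis3 had the widest gap between tumor and high doxycycline, with 1545 on tumor, 1179 on high doxycycline and 1179 on control. Pbx3 thus stood apart from its relatives on the same arrays.

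Dlx1 and Dlx2, neighbouring genes of the pharyngeal arches and of forebrain interneurons, were brighter on both other arrays than on control. Dlx1 had 1458 on tumor, 1283 on high doxycycline and 169 on control, and Dlx2 had 816 on tumor, 767 on high doxycycline and 336 on control. The log2 differences of Dlx1 were 3.10 and 2.92, those of Dlx2 1.28 and 1.19. The antisense transcript Dlx1as lay below every median, with 132.2 on tumor, 132.2 on high doxycycline and 138.2 on control. Dlx3, of the epidermis and placenta, had 3192 on tumor, 3159 on high doxycycline and 1707 on control, just inside 2-fold, and Dlx4 had 1862, 1600 and 1207 in that order. Dlx5, of bone and the lower jaw, went the other way, with 195.6 on tumor, 198 on high doxycycline and 346 on control, and its neighbour Dlx6 lay below every median. Of the compared Dlx genes, Dlx5 alone was dimmer than on control. Dlx1 lay below the median on control and Dlx5 above it on control alone, so the filter favoured the direction each shows.

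None of the compared Msx and Prrx genes reached 2-fold in the values as deposited. Msx2, a target of BMP signalling in limb buds and skull, had 444 on tumor, 390 on high doxycycline and 223 on control, or 1.99-fold between tumor and control. Msx2 lay below the median on control, so the filter favoured the direction it shows. Msx1, its relative in the same tissues, had 502 on tumor, 637 on high doxycycline and 586 on control. Prrx1, a marker of limb bud mesenchyme, had 5931 on all arrays, 1 of the exactly equal values described above. Prrx2 had 296 on tumor, 240 on high doxycycline and 463 on control, so it was dimmer than on control without reaching 2-fold.

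**Figure D3:**
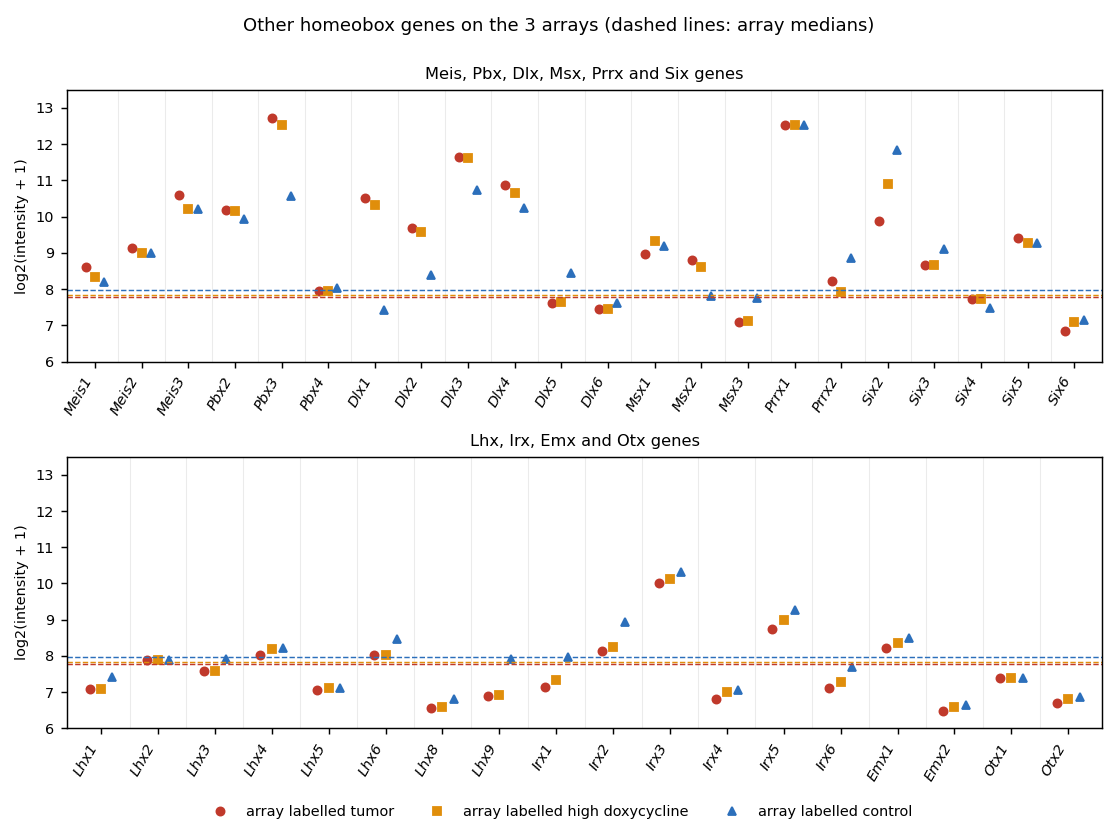
The y axis gives log2(intensity + 1) of the 40 homeobox genes outside the Hox clusters on the arrays labelled tumor (circles), high doxycycline (squares) and control (triangles), grouped by family along the x axis, with dashed lines at the array medians. Pbx3 and Dlx1 stand well below the other arrays on control, Six2 lies lowest on tumor (937), between the others on high doxycycline (1926) and highest on control (3640), and most Lhx, Emx and Otx genes lie near or below the medians.

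Of the relatives of Six2, none showed a 2-fold difference. Six5 had 674 on tumor, 619.5 on high doxycycline and 619.5 on control, and Six3, of the eye and forebrain, had 405 on tumor, 405 on high doxycycline and 551 on control. Six4 and Six6 lay below every median. Of the LIM homeodomain genes, Lhx2, Lhx4 and Lhx6 lay above the median on tumor and high doxycycline, and Lhx4 and Lhx6 on control. Lhx2 had exactly 235.2 on all arrays and fell below the median on control only because that median was higher. Lhx9, a gene of the gonad and limb bud, lay below every median and entered no comparison; it had 117 on tumor, 120 on high doxycycline and 239 on control.

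Each of the 4 compared Iroquois genes (Irx1, Irx2, Irx3 and Irx5) was dimmer on both other arrays than on control, and none by 2-fold. Of all compared genes 38.9% were dimmer on tumor than on control and 36.9% on high doxycycline than on control. Irx1 lay above the median on control alone and entered the comparisons through it. Irx3, which patterns limb bud and neural tube, had 1037 on tumor, 1119 on high doxycycline and 1264 on control, and Irx5, its neighbour, had 431 on tumor, 504 on high doxycycline and 613 on control. Irx3os, the opposite-strand transcript, showed the same order, with 296 on tumor, 372 on high doxycycline and 470 on control. The forebrain gene Emx1 had 295 on tumor, 327 on high doxycycline and 360.0 on control, while Emx2, Otx1 and Otx2, which pattern the front of the brain, lay below every median. Of all 81 members 35 lay below the median on all 3 arrays, with intensities between 82.8 and 247.

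Partners and regulators of the homeobox proteins were taken from lists by role. EYA and DACH proteins work with Six2 and its relatives as coactivators and corepressors. Of 3 compared genes of this list 2 were at least 2-fold brighter on tumor than on control, beside 18.5% of all genes. They were Dach2 (307 on tumor, 117 on high doxycycline, 54.9 on control) and Eya4 (2934 on tumor, 3020 on high doxycycline, 1018 on control), and Dach2 entered the comparison through the tumor array alone. Among the 7 compared LIM partners Ldb2, a cofactor that bridges LIM homeodomain proteins, was dimmer (162 on tumor, 183 on high doxycycline, 472 on control) and Ssbp2, which stabilises such bridges, was brighter on tumor (2982 on tumor, 1753 on high doxycycline, 1131 on control). Ldb2 lay above the median on control alone, so the filter favoured the direction it shows. On tumor 14.3% of the LIM partners were brighter and 14.3% dimmer by 2-fold, beside 18.5% and 10.2% of all genes. On high doxycycline 0% were brighter and 14.3% dimmer, beside 17.4% and 8.45%. Of the 3 compared TALE partners (Pknox and Tgif genes) 0 differed by 2-fold.

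Polycomb proteins keep Hox genes silent, and trithorax proteins keep them active. Of 20 compared Polycomb genes 4 were at least 2-fold brighter on tumor than on control and 5 on high doxycycline than on control, which is 20% and 25% beside 18.5% and 17.4% of all genes, and 0 were dimmer in either, beside 10.2% and 8.45%. Bmi1, a subunit of Polycomb complex 1, had 1968 on tumor, 1798 on high doxycycline and 590 on control, and Ezh2, the methyltransferase of complex 2, had 1136 on tumor, 1415 on high doxycycline and 541 on control. Mtf2, an accessory protein of complex 2, was 2.37-fold and 2.64-fold brighter, and the histone-binding Rbbp7 2.92-fold and 2.75-fold on its brighter probe set, although its other probe set gave log2 differences of 0.82 and 0.75. Phc3, of complex 1, was counted as not different on a probe set with 745 on all arrays, while its other probe set gave log2 differences of 2.37 for tumor minus control and 2.15 for high doxycycline minus control. The ubiquitin ligase gene Rnf2 was the fifth on high doxycycline (2.22-fold).

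Of 12 trithorax genes, Kdm6a, a demethylase of the Polycomb mark, had 646 on tumor, 510 on high doxycycline and 158 on control, and Mllt3, a partner of elongation factors, had 1516 on tumor, 1382 on high doxycycline and 413 on control. Kmt2a, the methyltransferase that maintains Hox expression, had 905 on tumor, 823 on high doxycycline and 1847 on control, and its relative Kmt2b had 675 on tumor, 599 on high doxycycline and 1355 on control. The first 2 were brighter and both methyltransferases dimmer than on control. On tumor both methyltransferases lay just past 2-fold, by less than the 0.18 (log2) shift of a common median for tumor minus control. Kdm6a lay below the median on control, so the filter favoured the direction it shows. In all 3 trithorax genes were brighter on tumor, with Psip1 as the third (2.09-fold), and 2 on high doxycycline (25.0% and 16.7%, beside 18.5% and 17.4% of all genes), and 2 were dimmer on each (16.7%, beside 10.2% and 8.45%). Their median log2 difference was 0.46 for tumor minus control and 0.48 for high doxycycline minus control. That of the Polycomb list was 0.16 and 0.14.

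Retinoic acid sets Hox expression in the embryo. Of 11 compared genes of this pathway 2 were at least 2-fold brighter and 3 dimmer on tumor than on control, and 1 brighter and 4 dimmer on high doxycycline. The 2 brighter genes on tumor make 18.2%, beside 18.5% of all genes, and the 3 dimmer ones 27.3%, beside 10.2%; on high doxycycline the shares were 9.09% beside 17.4% and 36.4% beside 8.45%. Rxrg, a retinoid X receptor, had 992 on tumor, 3474 on high doxycycline and 395 on control, and was 3.50-fold dimmer on tumor than on high doxycycline. Stra6, which takes up retinol, had 834 on tumor, 301 on high doxycycline and 491 on control and was 2.76-fold brighter on tumor than on high doxycycline. Aldh1a3, which makes retinoic acid, had 193 on tumor, 225 on high doxycycline and 516 on control, and Cyp26b1, which degrades it, had 186 on tumor, 199.9 on high doxycycline and 444 on control. The enzyme that makes the ligand and the one that removes it were both dimmer than on control. Both lay above the median on control alone, as did Crabp2, the other dimmer gene on tumor. They entered the comparisons with control through it, so the filter favoured the direction they show. Rara (-1.06) and Dhrs3 (-1.04), also counted as dimmer on high doxycycline, lay just past 2-fold on the log2 scale. So did Crabp2 on tumor (-1.06). These margins are smaller than the shifts of a common median, 0.14 for high doxycycline minus control and 0.18 for tumor minus control.

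Other genes of position in limb, trunk and face were measured beside the homeobox members. Of 21 compared genes 5 were at least 2-fold brighter on tumor than on control and 0 dimmer, and 5 brighter and 1 dimmer (En1, 2.10-fold) on high doxycycline. The 5 genes make 23.8% in each, near the 18.5% and 17.4% of all genes. The dimmer share was 0% on tumor and 4.76% on high doxycycline, beside 10.2% and 8.45%. En1 lay just past 2-fold (-1.07 on the log2 scale), by less than the 0.14 shift of a common median. Foxd1, of kidney stroma and retina, had 828 on tumor, 575 on high doxycycline and 81.5 on control. Shox2, of the proximal limb and the heart pacemaker, had 987 on tumor, 677 on high doxycycline and 172 on control. Foxd1 and Shox2 lay below the median on control, so the filter favoured the direction they show. Tbx5, the gene that marks the forelimb and heart, had 2428 on tumor, 3933 on high doxycycline and 1098 on control, while Tbx4, which marks the hindlimb, lay below every median (139 on tumor, 149 on high doxycycline, 198 on control). Pitx1, of the same list, had 215 on tumor, 247 on high doxycycline and 324 on control. It lay above the median on high doxycycline and control and within 2-fold. Limb identity was not tested. Foxf1, of the mesenchyme of gut and lung, had 6236 on tumor, 8244 on high doxycycline and 2353 on control, and its second probe set differed in the same directions. Tbx15, of trunk and limb skeleton, was 2.86-fold brighter on tumor and 2.67-fold on high doxycycline than on control.

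**Figure D4:**
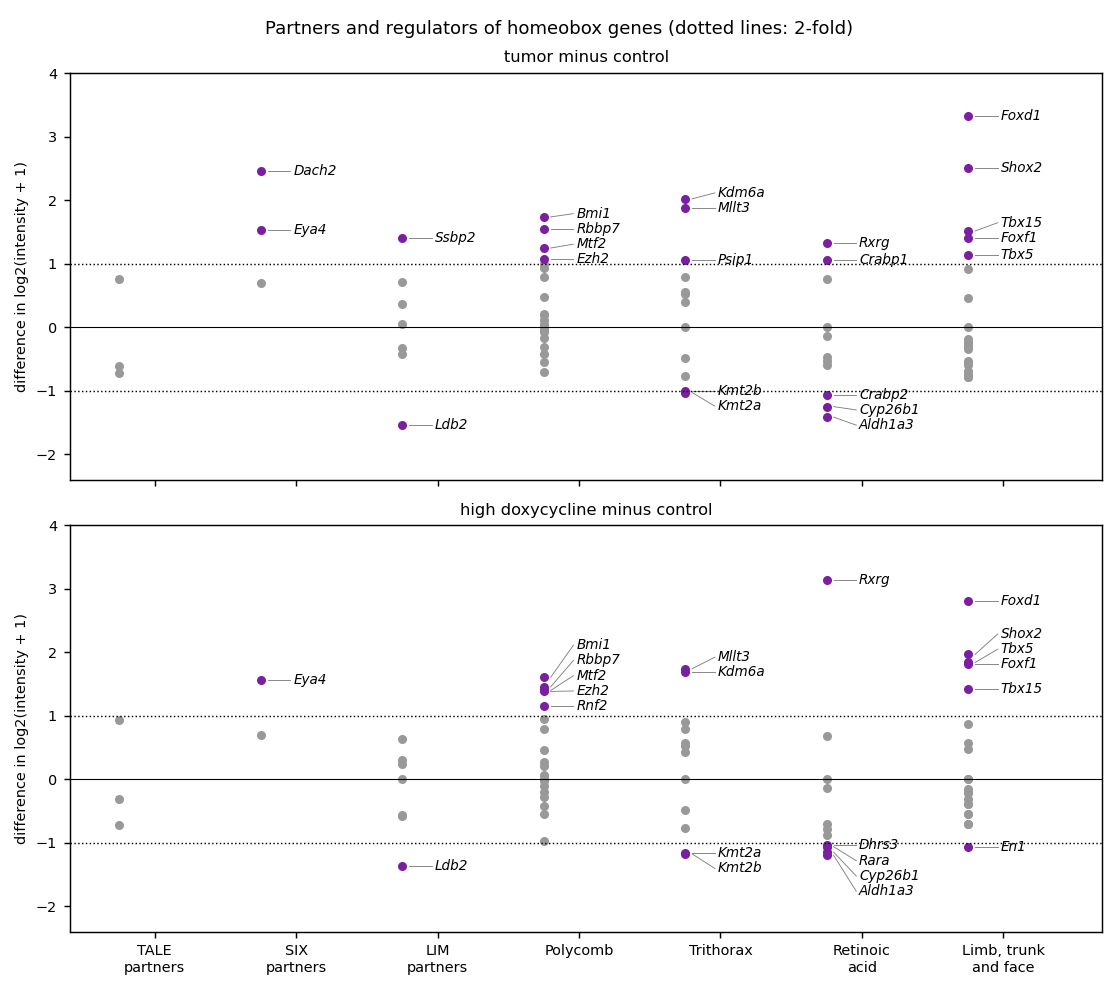
Each point is a compared gene of a partner or regulator list (x axis), placed by its difference in log2(intensity + 1) for tumor minus control (top) and high doxycycline minus control (bottom); genes at 2-fold or more (dotted lines) are purple and named. Foxd1 (3.33) and Shox2 (2.51) lead the top panel and Rxrg (3.13) and Foxd1 (2.80) the bottom one. Foxd1 and Shox2 lay below the median on control.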

How the data were processed

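Per the labels' protocols, total RNA from a column kit was labelled with biotin for MoGene-1_0-st-v1 arrays. The authors deposited linear intensity values, 1 per probe set. The sources used here do not give the background correction, probe summary or normalization behind them. Of 28856 probe sets 21789 have 1 gene symbol in the platform annotation, 1621 have several and 5446 none; the last 2 kinds were not used. Of the first, 21698 matched RefSeq (GRCm38.p6) by Entrez number, all 82 homeobox probe sets among them, and 0 symbols changed. A gene with several probe sets was represented by that of highest mean log2 value.

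Log2(intensity + 1) differences, counts and medians were computed with Python 3.11.15 and pandas 2.3.3, and the calculation was tested on simulated data. Values are printed for each Hox gene above a median and for each other member with a 2-fold difference, and for up to 4 genes with a 2-fold difference per partner list. Other named genes (such as Hoxa11, Hoxd8, Msx2, Prrx1, Irx3, Lhx9, Tbx4, Rnf2, Phc3, Psip1 and Tbx15) were chosen after their values were seen. Members, lists and settings were chosen with earlier results of these data known. With 1 array a group no test was made.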

Additional observations from a re-analysis of the deposited data

How the results depend on the processing

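With 1 array a group, no library could be left out, and differences carry no replicate error. No paired analysis was possible because each group has 1 array. There were 8 other settings: 2 scalings, 2 pseudocounts (16 and 64), no brightness filter, a filter at percentile 75 and 2 rules for several probe sets. A common median moves the median difference of all genes by 0.14 for high doxycycline minus control and by 0.18 for tumor minus control. Of 19 named 2-fold differences among the members, 17 stayed at 2-fold or more under the 4 scalings and pseudocounts, and 0 changed sign. The filters and probe set rules cannot move the difference of a gene with 1 probe set, but 7 of the 19 (Hoxa5, and Hoxa13, Hoxc8 and Dlx2 in both comparisons with control) were not compared at all with the filter at percentile 75. Under 2-fold were Hoxa5 for tumor minus control (lowest value 0.86, both larger pseudocounts) and Six2 for tumor minus high doxycycline (-0.99, a common median, quantile normalization or a pseudocount of 64), so that the count of dimmer members there was 0 under these 3 settings in place of 1. With the filter at percentile 75, the Hox genes above it were 6 on tumor, 6 on high doxycycline and 3 on control; members brighter on tumor than on control were 5, members dimmer were 1, members dimmer on high doxycycline than on control were 0, and the member medians were 0.71 for tumor minus control, 0.44 for high doxycycline minus control and 0.13 for tumor minus high doxycycline, since fewer genes enter. With no filter 4 members were dimmer on tumor than on control and 2 on high doxycycline than on control; under quantile normalization members dimmer on high doxycycline than on control were also 2. The 12 members brighter on tumor than on control under a common median stand against 8. Dim genes near the array medians limit what these arrays can show.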
